A study of Homo sapiens with 2 samples.

Results

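The members described here are 36 genes of mitosis and the G2 phase, taken by gene name from a table of 36814 gene starts, and all 36 were found. The assay was PRO-seq, a nuclear run-on method. Polymerases caught in the act of transcription add biotin-tagged nucleotides to their nascent RNA, which is then purified and sequenced. The labels name K562 cells, a cell line established from chronic myelogenous leukaemia. Reads at neural markers, nearly all of them in the DMSO library, are described below with the other markers. There were 2 libraries, 1 from cells in 0.1% DMSO, a drug solvent, for 1 h and 1 from untreated cells. Both came from permeabilised cells after a run-on of 5 min at 30 °C. Neither treatment was replicated, so no p-value is given, and each difference below is between these 2 libraries and not between the conditions. The labels name no sorting or arrest by cell cycle phase. A different share of cells in a phase and different transcription per cell therefore cannot be told apart.

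Entry into mitosis is driven by the kinase CDK1 bound to cyclin A or cyclin B. The phosphatases of the CDC25 family activate this kinase and WEE1 inhibits it. Once chromosomes are attached to the spindle, the anaphase-promoting complex with CDC20 marks cyclin B for destruction, and the spindle assembly checkpoint delays that step. Many genes of this programme are known to be transcribed late in the cell cycle, under promoters in which the factor NF-Y binds CCAAT boxes. A further element, the cell cycle genes homology region (CHR), recruits complexes of the MuvB core with B-MYB, FOXM1 or the repressive DREAM partners.

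Each value is the read count of a window of 6000 bases, 3000 to either side of an annotated gene start on hg38. The window totals were 4154920 reads in the DMSO and 2136291 in the untreated library. The windows taken as ribosomal RNA, 4 in number, were picked by position on a single chromosome and by very high read counts. Any ribosomal RNA window elsewhere or with fewer reads is not among them. Those 4 took 42.2% of the DMSO and 71.5% of the untreated reads. Counts scaled to the library total (CPM) therefore rank genes within a library and do not compare the libraries. A single read was worth 0.241 CPM in the DMSO and 0.468 CPM in the untreated library. The members together held 5685 DMSO and 1212 untreated reads, which were 0.253% and 0.231% of the reads outside ribosomal RNA and mitochondrial windows. Intervals are exact 95% intervals (Poisson for counts, Clopper-Pearson for ratios). They cover counting error only, and not the spread between cultures or libraries. Reads carry no molecular identifiers, so copies of the same molecule may count as separate reads and the intervals may be too narrow.

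The promoters are shown first, because the windows are laid around annotated gene starts. The RefSeq start used here lay 1233 bases from the window's centre in PLK1 and 1095 in PRC1. RefSeq promoters (GRCh38.p14, 250 bases before to 50 after the start) inside the window were matched for 26 of the 36 members, and not for FOXM1, WEE1, AURKA, BUB3, TTK, UBE2C, CENPA, BIRC5, TPX2 and NUSAP1. They were searched on both strands for CCAAT. For the CHR the letters TTTGAA were searched, and also TTCGAA. Other forms of the element were not searched, so a promoter without a match may still hold a CHR. A match is a description of letters and not evidence of binding. The 250 bases before the start are printed 5′ to 3′ on the gene's strand for the 6 members of highest mean CPM whose promoter holds either motif, and for MKI67, whose DMSO/untreated ratio was the highest. They lie at chr10:60778081-60778330 (CDK1, plus strand), chr15:90994536-90994785 (PRC1, minus), chr16:23678639-23678888 (PLK1, plus), chr4:121823884-121824133 (CCNA2, minus), chr5:69166900-69167149 (CCNB1, plus), chr2:110678064-110678313 (BUB1, minus) and chr10:128126424-128126673 (MKI67, minus). Capitals mark CCAAT or its reverse complement and the CHR letters.
CDK1: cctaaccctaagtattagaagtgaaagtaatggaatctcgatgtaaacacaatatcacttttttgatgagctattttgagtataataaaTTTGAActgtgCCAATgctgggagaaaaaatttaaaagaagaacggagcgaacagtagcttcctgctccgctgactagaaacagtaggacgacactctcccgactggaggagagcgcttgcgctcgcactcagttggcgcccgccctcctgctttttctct
PRC1: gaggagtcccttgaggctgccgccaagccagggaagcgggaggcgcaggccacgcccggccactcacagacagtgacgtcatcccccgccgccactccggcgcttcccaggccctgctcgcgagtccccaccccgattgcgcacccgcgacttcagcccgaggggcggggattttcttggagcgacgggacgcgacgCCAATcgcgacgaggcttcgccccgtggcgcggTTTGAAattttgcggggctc
PLK1: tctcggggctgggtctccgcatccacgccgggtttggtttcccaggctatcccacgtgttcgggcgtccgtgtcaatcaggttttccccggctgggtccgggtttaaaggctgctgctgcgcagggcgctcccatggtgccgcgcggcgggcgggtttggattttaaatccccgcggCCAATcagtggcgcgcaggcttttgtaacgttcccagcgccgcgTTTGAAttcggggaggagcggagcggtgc
CCNA2: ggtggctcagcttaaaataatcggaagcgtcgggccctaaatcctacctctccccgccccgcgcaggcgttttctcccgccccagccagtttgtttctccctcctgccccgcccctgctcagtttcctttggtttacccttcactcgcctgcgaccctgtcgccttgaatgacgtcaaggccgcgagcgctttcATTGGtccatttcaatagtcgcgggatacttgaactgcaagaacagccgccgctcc
CCNB1: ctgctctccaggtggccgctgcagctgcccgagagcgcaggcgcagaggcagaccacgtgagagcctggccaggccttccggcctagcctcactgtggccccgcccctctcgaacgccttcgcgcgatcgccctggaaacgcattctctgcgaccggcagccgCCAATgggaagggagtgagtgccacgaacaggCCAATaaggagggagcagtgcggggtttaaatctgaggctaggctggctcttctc
BUB1: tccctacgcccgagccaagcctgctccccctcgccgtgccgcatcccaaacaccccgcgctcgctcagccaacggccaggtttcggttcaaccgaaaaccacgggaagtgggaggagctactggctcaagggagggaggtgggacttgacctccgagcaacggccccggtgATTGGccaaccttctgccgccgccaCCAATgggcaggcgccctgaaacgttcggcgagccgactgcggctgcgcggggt
MKI67: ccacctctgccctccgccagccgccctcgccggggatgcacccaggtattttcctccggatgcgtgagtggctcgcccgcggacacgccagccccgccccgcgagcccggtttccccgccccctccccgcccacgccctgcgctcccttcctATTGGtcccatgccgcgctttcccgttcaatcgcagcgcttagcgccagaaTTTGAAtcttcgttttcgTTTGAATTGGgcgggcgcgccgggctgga
In PLK1 the CHR letters began at base -29 and in PRC1 at base -20, counted from the RefSeq start (base -1 is the base before it). The CCAAT letters of PLK1 began at -73 and those of PRC1 at -53, both upstream of the CHR. In CDK1 the order was the reverse, with the CHR letters at -161 and the CCAAT letters at -150. In CCNB1 there were 2 CCAAT matches, 32 bases apart, and no match to TTTGAA or TTCGAA in the 300 bases. In MKI67 CHR matches began at -47 and -29, and the match at -29 shared 1 base with a CCAAT match on the opposite strand. The CHR letters of BUB1 began at base 2 after the start, beyond the stretch printed.

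CCAAT was found in 20 of the 26 member promoters (76.9%), against 36.9% of the 3841 matched promoters of windows past the floor (100 reads in the 2 libraries together and an average of 5 CPM) and 34.6% of all 35116 RefSeq promoters. In the lists of related genes described below, CCAAT was found in 63 of 112 promoters of other G2 and M genes (56.25%). In S phase genes it was found in 21 of 42 (50%). The CHR letters were found in 18 (69.2%), against 10.2% past the floor and 16.4% of all promoters, and both motifs in 16 (61.5%), against 4.24% and 6.38%. The median GC content was 61.5% in the members, 66.3% past the floor and 58.7% in all promoters. Matches of the CHR beginning between bases -30 and -10 were found in 10 members (38.5%), namely CCNB2, PLK1, BUB1B, KIF11, CDCA8, INCENP, PRC1, ANLN, HMMR and MKI67, against 0.833% past the floor and 1.16% of all promoters. In the same stretch the share was 8.93% in promoters of other G2 and M genes and 0% in those of S phase genes. That stretch was chosen after the positions were seen.

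The members held 44 CCAAT matches, 19 on the gene's strand and 25 on the other, with a median first base at -74. Of the promoters, 12 held more than a single match, and HMMR held 5. Among the 24 distances between neighbouring matches the median was 39.5 bases, and in CCNB2 the distances were 124, 33 and 33 bases. Of the 24 CHR matches 20 lay on the gene's strand. CDC25B, CDC25C, CENPE and KIF2C held neither motif in the promoter nearest the window's centre. For E2F sites, known from genes of S phase, the letters TTGGCGC were searched, along with TTCCCGC, with TTGCCGC and with TTCGCGC. At least 1 of these occurred in 6 member promoters (23.1%), among them CDK1 with 2, against 30 of 42 S phase promoters (71.4%) and 21.0% past the floor. CHR letters occurred in 3 of the 42 S phase promoters (7.14%). The GC box GGGCGG occurred in 21 member promoters (80.8%), against 74.3% past the floor.

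**Figure D1:**
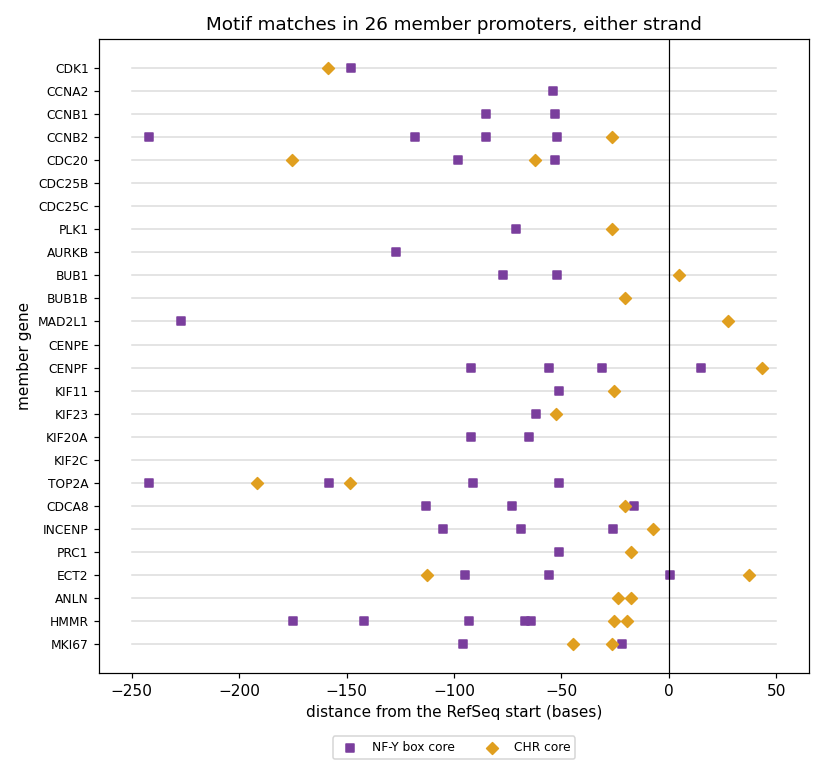
Positions of motif matches on either strand in the 26 member promoters (x axis, bases from the RefSeq start; y axis, member genes), with squares for the core of the NF-Y box and diamonds for the CHR. CHR matches lie between bases -30 and -10 in 10 promoters, and the 44 NF-Y box matches have a median first base of -74.

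**Figure D2:**
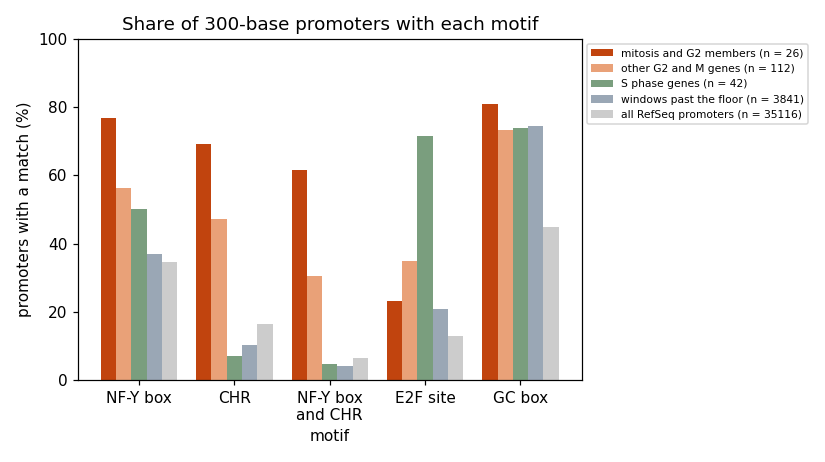
Share of 300-base promoters with a match to each motif (y axis, percent) in 5 sets of promoters (bars, with the number of promoters in the legend). The members lead for the NF-Y box (76.9%), the CHR (69.2%) and both together (61.5%), and the S phase genes for the E2F site (71.4%).

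The members fell into 24 genes whose window shared no base with another gene's and 12 that shared nearly all of theirs. Reads in shared bases are absent from these counts. All 1154 windows of the table with no base of their own held 0 reads. The 24 unshared windows held 5651 DMSO and 1204 untreated reads. The 12 others, with 0 to 784 bases of their own, held 34 and 8 reads in all. Counting only starts that have a window in the table, an opposite-strand start lay within 1000 bases for 11 of these 12, all but CENPA. That is 11 of 36 members (30.6%), against 7364 of all 36814 windows and 23.5% of those named for a RefSeq protein-coding gene. RefSeq starts that have no window of their own here lay as near on the opposite strand in CDC25C, BUB1 and PRC1, whose windows share no base. The low counts of the 12 say nothing about how strongly the genes were transcribed.

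Among these 12 were several central mitotic genes. FOXM1, a transcription factor of the programme, had no unshared base, because its window is covered by those of TULP3 and RHNO1, and 0 reads in both libraries. AURKA, the spindle pole kinase, had 33 unshared bases, 1 DMSO read and 0 untreated reads, and its start lay 33 bases from that of CSTF1, a factor of RNA cleavage. CDC25B, a CDK1-activating phosphatase, had 31 unshared bases and 0 reads, next to the centromere protein gene CENPB. CDC20, the activator of the anaphase-promoting complex, had 322 unshared bases with 13 DMSO and 2 untreated reads. Where a single window overlaps, the unshared bases lie at the far edge of the member's own, away from its start, so these counts do not measure its promoter.

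MAD2L1, a checkpoint protein that holds CDC20 inactive, had 99 unshared bases with 3 DMSO and 2 untreated reads. CDCA8, a subunit of the chromosomal passenger complex, had 8 and 0 reads in 231 bases beside C1orf109, and INCENP, the scaffold of that complex, had 0 in both. The motors of the spindle midzone KIF20A and KIF23 had 5 and 2 reads (268 bases, beside BRD8) and 4 and 2 reads (784 bases). ANLN, the contractile ring protein anillin, had 0 reads in 305 bases, and HMMR, a spindle protein, 0 in 100 bases. A count of 0 allows up to 3 reads in those bases as a one-sided 95% limit (the exact Poisson interval used elsewhere reaches 3.69 reads), which is 0.722 CPM in the DMSO and 1.40 CPM in the untreated library.

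CENPA, the centromeric histone variant, was a case of its own. Its window is centred 21767 bases upstream of its RefSeq start, overlaps that of SLC35F6 on the same strand in all but 5 bases, and held 0 reads. No window of the table held the RefSeq start of CENPA. The windows of 34 members held the gene's RefSeq start, and the other exception was NUSAP1.

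**Figure D3:**
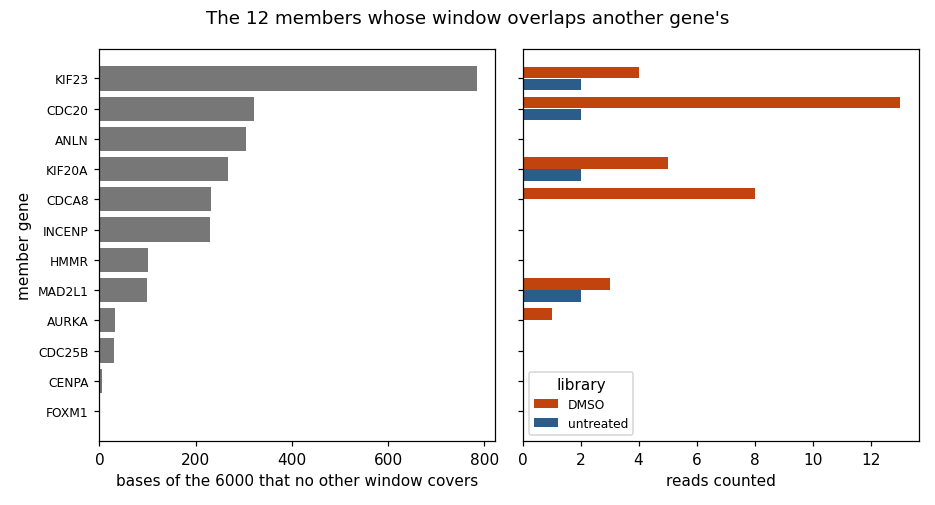
The 12 members whose window overlaps another gene's (y axis), with the bases that no other window covers (left, x axis, bases) and the reads counted (right, x axis, reads; DMSO above untreated). None had over 784 bases of its own or over 13 DMSO and 2 untreated reads.

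Among the 24 unshared members, which have 1 window length and can be ranked by CPM within a library, 23 reached 5 CPM in both libraries. That was 23 of all 36 members (63.9%), against 23.2% of all windows. The share to set beside the 23 of 24 unshared members is that of all windows sharing no base, 30.2%. Sharing no base with another window does not exclude other genes. Windows of CCNA2 (BBS7), PLK1 (DCTN5), UBE2C (DNTTIP1), CENPF (ABHD17AP3) and PRC1 (VPS33B), among others, overlap a further RefSeq gene, whose reads may be included. Ratios were read only for windows past a floor, namely 100 reads in the 2 libraries together and an average of 5 CPM, which 17.9% of all windows passed. It was passed by 22 members, all of them unshared, and the other 2 unshared members were TTK and CENPE. Over those 22 members the median was 44.9 CPM in the DMSO and 22.2 CPM in the untreated library, and over all windows past the floor 49.3 and 21.1 CPM. The members past the floor were thus near the middle of the gene starts that passed.

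**Figure D4:**
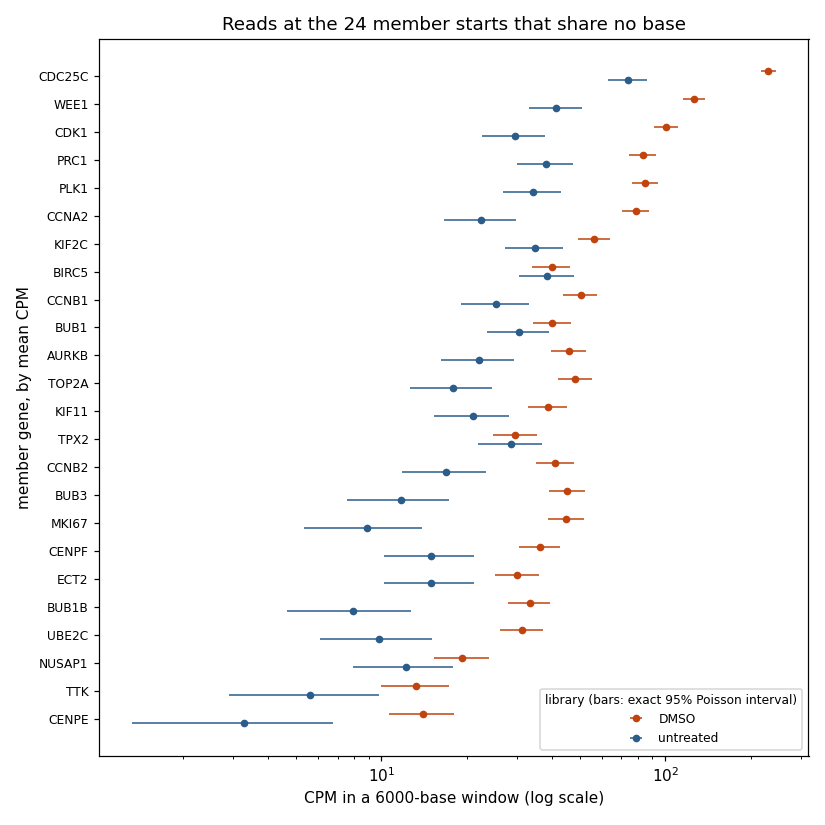
CPM in the 6000-base window (x axis, log scale) of the 24 members whose window shares no base (y axis, ordered by mean CPM) in the DMSO and the untreated library, with exact 95% Poisson intervals as bars. CDC25C leads in both libraries (231 and 74.0 CPM), and TTK and CENPE are lowest.

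Genes of the CDK1 switch had the 3 highest counts among the DMSO values. CDC25C (chromosome 5, 138335356 to 138341355), a phosphatase that activates CDK1, had 958 DMSO and 158 untreated reads, or 231 and 74.0 CPM. Its window also holds a start of FAM53C on the opposite strand, 90 bases from the window's centre, and reads of these genes cannot be told apart. WEE1, the inhibitory kinase (chromosome 11, 9570670 to 9576669), had 524 DMSO and 88 untreated reads. CDK1 itself (chromosome 10, 60775331 to 60781330) had 419 and 63. Within the DMSO library WEE1 had 1.25 times the reads of CDK1 (interval 1.10 to 1.43), and within the untreated library 1.40 times (0.999 to 1.96), where the interval reaches 1.

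Among the cyclins, CCNA2 (cyclin A2) had 327 DMSO and 48 untreated reads, CCNB1 (cyclin B1) 209 and 54, and CCNB2 (cyclin B2) 170 and 36. The CCNA2 window also overlaps the gene BBS7, whose reads may be included. The order of CCNA2 and CCNB1 differed between the libraries. CCNA2 had 1.56 times the reads of CCNB1 with DMSO (interval 1.31 to 1.87) and 0.889 times untreated (0.590 to 1.34). CCNB1 and CCNB2 did not differ beyond counting error in either library, with ratios of 1.23 with DMSO (0.999 to 1.51) and 1.5 untreated (0.966 to 2.35).

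To compare the libraries, counts were scaled by TMM and log2 DMSO/untreated ratios set relative to the median window past the floor, where 4.72 DMSO reads stood against each untreated read. On this scale the members past the floor had a median log2 ratio of -0.01, against 0 for all windows past the floor by construction. Their summed reads, 5538 DMSO and 1185 untreated, gave -0.01 (interval -0.10 to 0.08). The single members ranged from -1.23 to 1.04, with 10 above the median window (50% of windows past the floor are) and 11 below it. On the TMM scale without centring, and likewise with DESeq2 size factors, 16 were above 0 and 6 below. MKI67 was at least 2-fold higher (1 of 22, against 7.04% of windows past the floor), and TPX2 and BIRC5 were at least 2-fold lower (2 of 22, against 7.97%). Intervals lay wholly above the median window for 7 members (22.5% of windows past the floor did) and wholly below it for 4 (24.5%). No test of the members against other gene starts was made, and nothing particular to them is read from these counts.

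**Figure D5:**
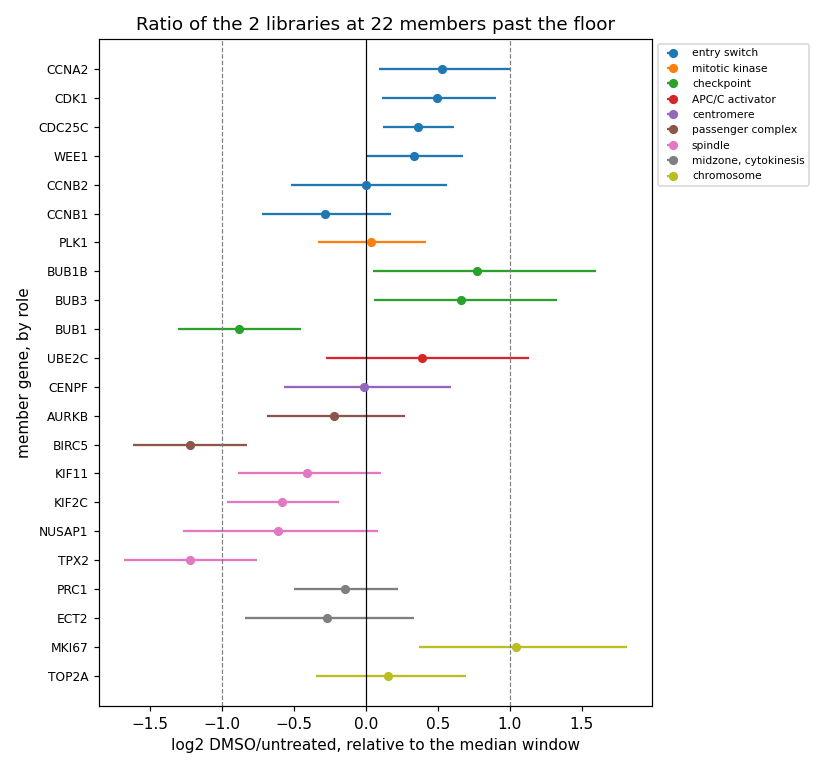
Log2 DMSO/untreated ratio relative to the median window (x axis; dashed lines mark 2-fold) of the 22 members past the floor (y axis, coloured by role), with exact 95% intervals for counting error. MKI67 stands at 1.04, and TPX2 and BIRC5 lie at -1.22 and -1.23.

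The ratios are given by role as a description, with no test of any role. Of the 6 genes of the CDK1 switch past the floor 4 had intervals wholly above the median window, as 22.5% of all windows past the floor did, namely CCNA2 at 0.53 (0.09 to 1.00), CDK1 at 0.49 (0.11 to 0.90), CDC25C at 0.36 (0.12 to 0.61) and WEE1 at 0.33 (0.01 to 0.68). CCNB1 stood at -0.29 (-0.72 to 0.17). CCNB2, at 0.00, was itself the median window. The intervals of both cyclin B genes include the median window. The summed log2 ratio of all 6 genes was 0.31 (0.16 to 0.45).

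Of the mitotic kinases, PLK1, which acts at centrosomes, kinetochores and the midzone (chromosome 16, 23674656 to 23680655), had 353 DMSO and 73 untreated reads and a log2 ratio of 0.03. The PLK1 window also overlaps the gene DCTN5, whose reads may be included. AURKB, the kinase of the passenger complex, had 190 and 47 reads and stood at -0.22. PLK1 had 1.86 times the DMSO reads of AURKB (interval 1.55 to 2.23) and 1.55 times its untreated reads (1.06 to 2.29). Their order was thus the same in both libraries.

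The spindle assembly checkpoint genes lay on both sides of the median window. BUB1, a checkpoint kinase (chromosome 2, 110675064 to 110681063), had 166 DMSO and 65 untreated reads and a log2 ratio of -0.88 (-1.31 to -0.45). Its window also holds an opposite-strand start of LOC105373554, at -148 bases from the centre (upstream of it on BUB1's strand), and reads of these genes cannot be told apart. BUB1B, which encodes the checkpoint protein BubR1, had 138 and 17 reads and stood at 0.77 (0.05 to 1.60). BUB3, the partner that brings both to kinetochores, had 187 and 25 reads and stood at 0.66 (0.06 to 1.33). Within the untreated library BUB1 had 3.82 times the reads of BUB1B (interval 2.21 to 6.96), and within the DMSO library 1.20 times (0.954 to 1.52). TTK, the kinase that starts the checkpoint signal, was low, with 55 DMSO and 12 untreated reads. It did not reach the floor, and BUB1 had 3.02 times its DMSO reads and 5.42 times its untreated reads.

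UBE2C, which passes ubiquitin to substrates of the anaphase-promoting complex, had 130 DMSO and 21 untreated reads and stood at 0.39 (-0.28 to 1.13). At kinetochores, CENPF had 150 and 32 reads (-0.01), and the motor gene CENPE 58 and 7 reads, too few for the floor. CENPF had 2.59 times the DMSO reads of CENPE (interval 1.90 to 3.57) and 4.57 times its untreated reads (1.98 to 12.3).

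BIRC5, the gene of survivin in the passenger complex (chromosome 17, 78211186 to 78217185), had the lowest ratio of all members. It had 165 DMSO and 82 untreated reads, with a log2 ratio of -1.23 (-1.62 to -0.83). AURKB, the kinase of the same complex, had 1.15 times its DMSO reads (0.930 to 1.43) and 0.573 times its untreated reads (0.392 to 0.830). The other 2 subunits, CDCA8 and INCENP, could not be compared for want of unshared bases.

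The 4 spindle genes past the floor stood below the median window, as 50% of all windows past the floor did. Among these 4 is NUSAP1, whose window does not hold its RefSeq start and overlaps the gene OIP5. Intervals lay wholly below it for 2 of them, as for 24.5% of all windows past the floor, and no test of the group was made. TPX2, an activator of Aurora A on the spindle (chromosome 20, 31736271 to 31742270), had 123 DMSO and 61 untreated reads (-1.22, interval -1.68 to -0.76). KIF2C, a motor that shortens microtubules, had 233 and 74 reads (-0.58, interval -0.97 to -0.19). KIF11, the motor that pushes spindle poles apart, had 160 and 45 reads (-0.41, interval -0.89 to 0.10). Their sum with NUSAP1 stood at -0.71 (-0.94 to -0.47). On the TMM scale without centring, TPX2, KIF2C, KIF11 and NUSAP1 were still below 0, at -0.91, -0.27, -0.10 and -0.30. With library totals all 22 members were above 0, BIRC5 and TPX2 least at 0.05 each.

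NUSAP1, a microtubule-binding protein of the spindle, had 80 DMSO and 26 untreated reads (-0.61, interval -1.27 to 0.08). These reads lie away from its promoter, and the window overlaps the gene OIP5, whose reads may be included. The window is centred 12087 bases upstream of the RefSeq start of NUSAP1. That start lies instead in the window of OIP5, 289 bases from that window's centre. The OIP5 window held 520 DMSO and 111 untreated reads, with a ratio of -0.01 (-0.31 to 0.30). Whether those reads belong to OIP5 or to NUSAP1 cannot be told apart.

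For the end of mitosis, PRC1, which crosslinks microtubules of the midzone (chromosome 15, 90992630 to 90998629), had 345 DMSO and 81 untreated reads (-0.15, interval -0.50 to 0.22). These may include reads of LOC124903556, whose opposite-strand start lies 851 bases from the window's centre. They may also include reads of VPS33B, a gene that the window overlaps. ECT2, which activates RhoA at the cleavage site, had 125 and 32 reads (-0.27, interval -0.84 to 0.34). PRC1 had 2.76 times the DMSO reads of ECT2 (2.24 to 3.41) and 2.53 times its untreated reads (1.66 to 3.94). Both intervals of the log2 ratio include the median window.

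Of the chromosome proteins, MKI67, the gene of the proliferation marker Ki-67 (chromosome 10, 128123424 to 128129423), had 186 DMSO and 19 untreated reads, with a log2 ratio of 1.04 (0.37 to 1.82). TOP2A, the topoisomerase that untangles sister chromatids, had 200 and 38 reads and stood at 0.16 (-0.35 to 0.70). Within the DMSO library the ratio of TOP2A to MKI67 was 1.08 (0.876 to 1.32), and within the untreated library 2 (1.12 to 3.67). The intervals of MKI67, TPX2 and BIRC5 all reach inside the 2-fold threshold, so counting error alone could move each of them across it.

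Other genes of G2 and mitosis were taken from a list of 133, of which 52 passed the floor. They had a median log2 ratio of 0.28, with 34 above and 18 below the median window (50% of windows past the floor are above). Of the 52, 5 were at least 2-fold higher (7.04% of windows past the floor were) and 1 at least 2-fold lower (7.97%). In the group of MuvB, B-MYB, E2F and NF-Y genes 9 of the 10 past the floor were above the median window, as 50% of windows past the floor were. TFDP1, the partner of E2F factors, had 432 DMSO and 7 untreated reads (3.67, interval 2.65 to 5.03), and NFYB, an NF-Y subunit, 536 and 32 (1.82, interval 1.31 to 2.39). E2F7, an E2F repressor, stood at 1.11, and NFYA, the most read gene of this group with 1015 and 151 reads, at 0.51. LIN54, the MuvB subunit that contacts the CHR, stood at -0.09.

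CDC25A, the CDC25 phosphatase also active at the G1/S transition, had 239 DMSO and 16 untreated reads (1.65, interval 0.93 to 2.49). Unlike CDC25B it shares no base with another window. Tubulin-binding STMN1 stood at 1.02 and the cytokinesis kinase gene CIT, with 90 DMSO and 44 untreated reads, at -1.20 (-1.74 to -0.65). Among the most read genes of the other groups were TUBB4B, a tubulin, with 2212 and 275 reads (0.77), UBE2S, the partner of UBE2C, with 1551 and 171 (0.94), and CKS2, a CDK1-binding protein, with 756 and 102 (0.65). NCAPG2, a condensin subunit, stood at 0.64 and MAD1L1, the MAD2L1 anchor, at 0.21. Kinetochore genes had a median of 0.00 with 6 of 12 above the median window.

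S phase genes, from a list of 54, had 21 past the floor with a median of 0.24. Of these 2 were at least 2-fold higher, CCNE1 (cyclin E1) at 1.28 and E2F1 at 1.26, and none was at least 2-fold lower. Of all windows past the floor 7.04% were at least 2-fold higher and 7.97% at least 2-fold lower. POLD1, the most read, stood at -0.16. No difference between these lists and the members was tested.

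The label of the cells was checked against markers. Erythroid markers were read in both libraries, and neural markers almost only in the DMSO library. Of 10 erythroid markers 9 had DMSO and 8 untreated reads, 3362 and 1162 in all, led by TFRC with 1179 and 432, and HBE1, whose window has no base of its own, was at 0 in both. The 6 erythroid markers past the floor were all below the median window, 4 with intervals wholly below it, and their summed log2 ratio was -0.69 (-0.79 to -0.60). The part of this in the members' ratios was not tested. Of 20 neural markers 18 had DMSO and 3 untreated reads, 4319 and 11 in all. Among them CDR1 had 2985 and 0 reads and GFAP 514 and 0, and NEFL and NEFM, with 490 and 0 unshared bases, were at 0 in both. Of 12 leukocyte markers 11 had DMSO reads and 8 untreated reads, 1520 and 278 in all, of which CD68 had 1200 and 201. Of 12 epithelial, fibroblast and liver markers 8 and 4 had reads, 161 and 61 in all, with EPCAM (83 unshared bases) and COL1A1 (1757) at 0 in both. The source of the neural reads of the DMSO library and their part in the members' ratios were not tested.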

How the data were processed

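The deposited table gives read counts and TPM for 36814 windows of 6000 bases. The submitters' processing notes name Bowtie2 2.3.5, featureCounts 2.0.1 and the build hg38 behind these deposited counts; strand setting and annotation release are not given in the sources used here. The authors' deposited TPM equalled CPM computed from the counts to within rounding, as windows of equal length give, so only the counts entered the results. Libraries were scaled with TMM factors (edgeR 4.0.16, R 4.3.3); log2 ratios used a prior of 0.5 reads on average, in proportion to library size, and were set relative to the median of the 6591 windows past the floor (at TMM alone that median was 0.31). Alternatives included size factors of DESeq2 1.42.0. Intervals, motif searches and figures used Python 3.11.15 with scipy 1.17.1. With 1 library per group no test across genes was possible; the ratio step was tested on simulated data. Members, lists and tests were chosen with earlier results of these data known. Named genes were all members and, in each other list or group of it, the most read gene and those at least 2-fold from the median window; OIP5, LIN54 and the marker genes were named after their values were seen. Sequences are RefSeq's (GRCh38.p14). Symbols with no entry in the promoter table are not analysed for motifs here.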

Additional observations from a re-analysis of the deposited data

How the results depend on the processing

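No paired analysis was possible because only 1 library stands on either side, and no replicate could be left out. The members' summed log2 ratio (-0.01) was 0.30 on the TMM scale without centring, 1.26 with library totals, 0.28 with DESeq2 size factors, 0.10 at a floor of 1 CPM and 20 reads, 0.13 at 20 CPM and 400 reads (5 members), -0.40 with any read (30 members) and 0.093 after DMSO reads were thinned to the untreated library's number, ribosomal and mitochondrial windows aside (10 members). Their median (-0.01) was 0.30, 1.27, 0.29, 0.11, 0.21 and -0.40 under the same settings before the thinning. Members at least 2-fold higher (1) numbered 2, 14 and 2 under those 3 scales, 3 at 1.5-fold, and 0 at 20 CPM and after thinning. Members at least 2-fold lower (2) numbered 0 under the 3 scales and at 20 CPM, 7 with any read, 1 after thinning and 4 at 1.5-fold. Other G2 and M genes at least 2-fold higher (5) numbered 13, 45 and 12 under the scales, 9 at 1 CPM, 2 at 20 CPM, 18 with any read and 3 after thinning, and those at least 2-fold lower (1) numbered 0 under the scales, at 20 CPM and after thinning, 2 at 1 CPM and 27 with any read. Scaling without centring shifts all windows alike. Floors and thinning change how many genes are counted, and each floor also resets the median window that is set to 0. Members past the main floor therefore shifted alike under the other floors. CCNB2, at 0.00 on the main floor, stood at 0.11 at 1 CPM and 20 reads and at -0.39 with any read. Otherwise the cause was not tested. Members at 20 CPM in both libraries numbered 13, against 23 at 5 CPM. CCAAT on the gene's strand alone was found in 11 promoters. The trend-subtracted fit gives no summed ratio and was not run for it. The median was 0.01 after thinning, -0.03 among unshared windows, 0.02 less a trend with CPM and -0.01 with a prior of 2 reads. Depth limits single genes, since the untreated library gave 12 to 158 reads to 23 of the unshared members and 7 to CENPE.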

Other observations

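Closely spaced starts on opposite strands were counted in all 3 cell cycle lists, and the members' share was the nearest to that of protein-coding windows. An opposite-strand start with a window in the table lay within 1000 bases for 11 of the 36 mitosis and G2 members (30.6%), 58 of the 133 other G2 and M genes (43.6%) and 25 of the 54 S phase genes (46.3%), against 23.5% of the 18731 windows named for a RefSeq protein-coding gene. In the same order 33.3%, 45.1% and 48.1% had under 1000 bases of their own, against 27.1%. Little of those windows could be counted, although a window with under 1000 bases of its own can still pass the floor. The CHR letters occurred in 53 of 112 matched promoters of the other G2 and M genes (47.3%), and both CHR and CCAAT in 34 (30.4%). Among the members, 7 of the 9 matched promoters with shared windows held CHR letters, as did 11 of the 17 with unshared windows. The 11 members past the floor with CHR letters had log2 DMSO/untreated ratios relative to the median window from -0.88 to 1.04 with a median of 0.00, and the 5 without had -0.58 to 0.53 with a median of -0.22. These are descriptions, and no difference was tested.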
